A study of Homo sapiens with 9 samples.

Results

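The HOX cluster genes were described in 3 sublines of SUIT-2, a human pancreatic ductal adenocarcinoma (PDAC) cell line. Members were the rows of the count table whose gene symbol is HOXA, HOXB, HOXC or HOXD followed only by a number, which gave 39 of 42717 genes. The HOXA cluster has 11 members on chromosome 7, the HOXB cluster 10 on chromosome 17 (48528526 to 48728750), the HOXC cluster 9 on chromosome 12 (53938831 to 54056030) and the HOXD cluster 9 on chromosome 2 (176087487 to 176190907), with all positions in GRCh38.p14. S2-007, S2-020 and S2-028 each gave 3 libraries, n1 to n3, of poly(A)-selected RNA from cells kept in DMEM with fetal bovine serum. The study describes S2-007 as panMaspin, with maspin in nucleus and cytoplasm, S2-028 as cytMaspin, with maspin in the cytoplasm alone, and S2-020 as weakly positive for maspin, a serine protease inhibitor family protein encoded by SERPINB5. Each line is 1 subline of 1 tumour line, so differences between lines cannot be told apart from differences tied to maspin. Nothing in the labels says that the 3 libraries of a line came from separate cultures, so the p values measure only the spread between these libraries.

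HOX genes encode homeodomain transcription factors that give cells their identity along the head-to-tail axis of the embryo. They lie in 4 clusters in mammals, and genes in the same place in each cluster form a paralogous group numbered from the anterior end of the axis to the posterior end. Adult epithelia keep part of this pattern, Polycomb complexes hold silent HOX genes in H3K27-methylated chromatin while trithorax proteins keep active ones on, and HOX proteins bind DNA together with PBX and MEIS cofactors. Altered HOX levels are common in carcinomas, pancreatic ones among them.

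The total count per library lay between 60328748 and 86253923, and every line expressed the 5 epithelial markers EPCAM, KRT8, KRT18, KRT19 and CDH1 above the floor of 3 counts. Their summed level was 9318 to 9813 CPM (counts scaled to library size after TMM normalization) in S2-007, 4266 to 5382 CPM in S2-020 and 14374 to 16868 CPM in S2-028. By the test described below, 4 of the 5 were lower in S2-020 than in S2-007, and the 5 log2 fold changes ran from -4.40 to -0.29. All 5 were higher in S2-028 than in S2-020 (1.53 to 4.63). Summed levels of 6 fibroblast markers were 2.43 to 5.75 CPM over the 9 libraries, of 3 endothelial markers 5.39 to 9.84 CPM, of 3 acinar markers 0.430 to 1.32 CPM and of 3 endocrine markers 0.0240 to 0.754 CPM. The 5 leukocyte markers summed to 295 to 370 CPM in S2-007 against 3.13 to 5.07 CPM in the other libraries, and lysozyme (LYZ) alone had a mean of 332 CPM in S2-007. Whether these differences have a part in the HOX results was not tested. SERPINB5 lay between 203 and 221 CPM in S2-007, 6.08 and 6.90 CPM in S2-020 and 26 and 30.9 CPM in S2-028. Among genes with 1 to 20 counts in a library 74.6% to 76.1% of the counts were even, so low counts move mostly in steps larger than a single count.

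The lines differed in the level of each cluster. Summed over a cluster and scaled to transcript length (CPM per kb of the MANE Select transcript), HOXB gave the highest level in every line, with 65.5 ± 2.79 in S2-007, 43.6 ± 1.03 in S2-020 and 79.9 ± 6.66 in S2-028 (mean ± SD, n = 3 libraries). HOXA followed with 30.6 ± 2.53, 15.5 ± 0.537 and 26.5 ± 1.70 CPM per kb. HOXC stood at 12.0 ± 0.896 CPM per kb in S2-007 and 12.0 ± 0.0941 in S2-020 but at 1.59 ± 0.298 in S2-028. HOXD was the lowest cluster in S2-007 and S2-020, with 2.12 ± 0.209 and 1.64 ± 0.149 CPM per kb, and had 1.5 ± 0.0673 CPM per kb in S2-028, within the SD of HOXC there. Per kb of transcript, HOXC supplied 10.9% of the HOX total in S2-007, 16.5% in S2-020 and 1.45% in S2-028. HOXB supplied 59.447%, 60.003% and 72.988% in that order, with S2-007 and S2-020 close to each other. In CPM not scaled to length, the HOXC shares were 8.99%, 15.1% and 1.43%. On that scale HOXB supplied 44.9%, 52.1% and 64.7% and HOXA 44.3%, 30.4% and 32.3%, so the HOXA and HOXB shares were close in S2-007.

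**Figure D1:**
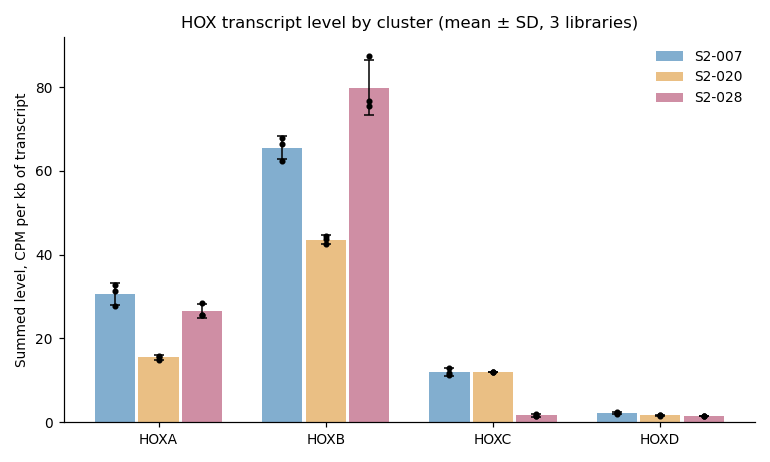
Summed level of each HOX cluster in CPM per kb of transcript on the y axis and the cluster on the x axis, with bars for the mean of a line, error bars for the SD and points for the 3 libraries. The 3 S2-028 points of HOXC lie near 1.59 CPM per kb, below every point of S2-007 and S2-020, while its HOXB points lie above all others.

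The total over all 39 members was 251 ± 16.0 CPM in S2-007, 151 ± 3.02 CPM in S2-020 and 222 ± 11.1 CPM in S2-028. A mean of at least 1 CPM was reached by 19 members in S2-007, 21 in S2-020 and 17 in S2-028. By cluster, in the order S2-007, S2-020, S2-028, which also holds below wherever 3 means stand without a line's name, the number of such members was 4, 6 and 8 for HOXA, 8, 8 and 8 for HOXB, 5, 7 and 0 for HOXC and 2, 0 and 1 for HOXD. Most of the HOX signal in each line came from few genes. Per kb of transcript, HOXB6 (28.6 ± 1.76 CPM per kb in S2-007, 15.0 ± 0.355 in S2-020 and 28.9 ± 2.48 in S2-028) and HOXB7 (25.6 ± 1.00, 16.7 ± 0.833 and 29.4 ± 3.43) were the pair at the top in every line, and their order changed with the line and with the transcript length used. HOXA13 came next in S2-007 with 12.7 ± 1.19 CPM per kb, and HOXA3 took that place in S2-020 (6.91 ± 0.178) and in S2-028 (11.8 ± 1.10). With the length of all annotated exons instead, HOXB9 lay above HOXA3 in S2-028 (9.64 and 8.30 CPM per kb).

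**Figure D2:**
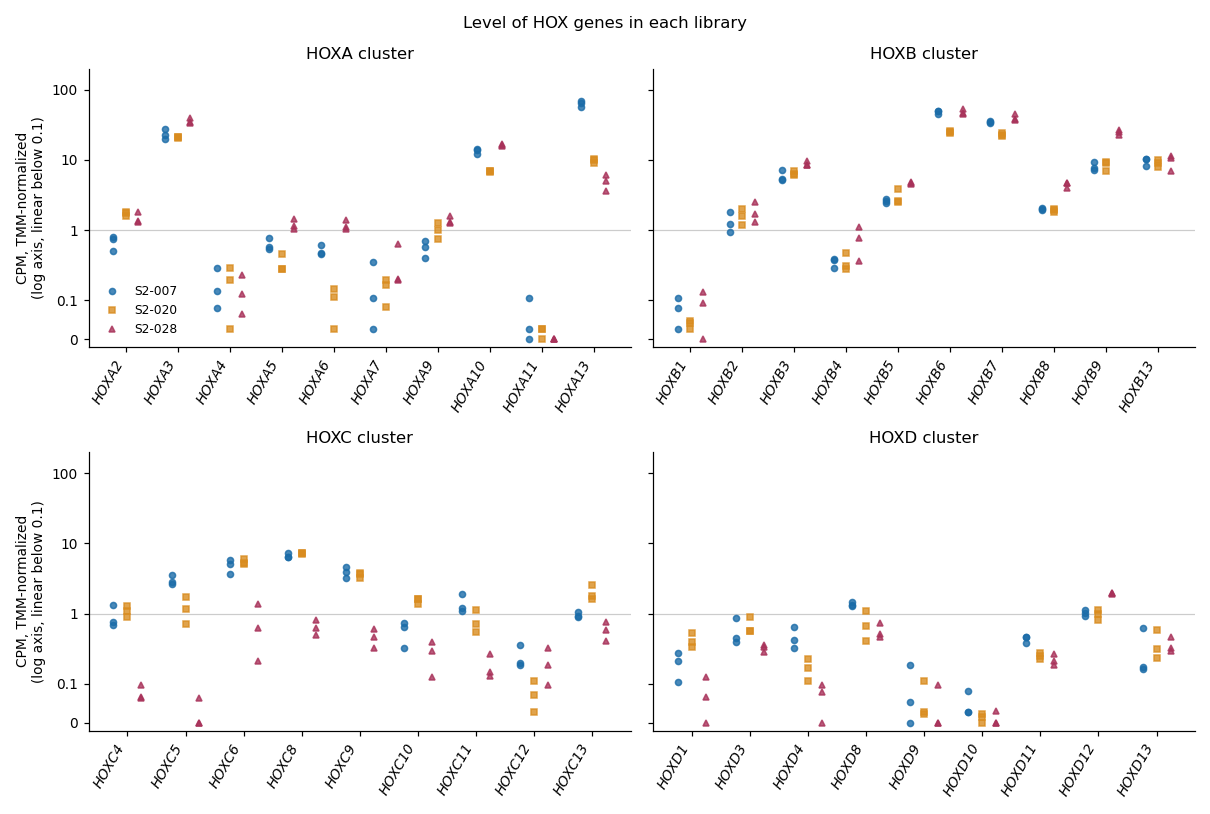
TMM-normalized CPM (log axis, linear below 0.1) of the HOX genes described here in each of the 9 libraries, with 1 panel per cluster and genes ordered from paralogous group 1 to 13. The S2-028 triangles fall below the other lines along most of HOXC, and HOXA13 separates S2-007 from both other lines.

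Genes were tested in each pair of lines with edgeR's quasi-likelihood test, with p values adjusted by Benjamini-Hochberg over all genes tested, and a gene was called at an adjusted p under 0.05 and a fold change of at least 1.5. Values after ± are SE for log2 fold changes and SD for levels. Of the 39 members, 33 passed the expression filter for S2-028 against S2-007, and 10 were called higher and 9 lower in S2-028. Among all 26371 genes tested in that pair 18.4% were called, 10.2% higher and 8.19% lower. For S2-020 against S2-007, 35 members passed, 3 were higher and 10 lower, beside 21.6% of all genes called (9.57% higher and 12.1% lower), and without S2-007 n1 the number lower was 6. For S2-028 against S2-020, 33 members passed, 11 were higher and 10 lower, beside 22.2% of all genes called (12.1% higher and 10.1% lower). Without regard to the test, every library of the first line lay above every library of the second for 12 tested members and below for 12 in S2-028 against S2-007, where the shares of all genes were 22.0% and 21.3%. These numbers were 5 and 12 in S2-020 against S2-007 (24.7% and 23.8% of all genes) and 13 and 11 in S2-028 against S2-020 (24.2% and 24.7%). The 3 contrasts share libraries and are not independent of each other.

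The calls were split by cluster. In S2-028 against S2-007, HOXA had 5 higher and 1 lower of 9 tested, HOXB 4 higher and 0 lower of 9, HOXC 0 higher and 6 lower of 9, and HOXD 1 higher and 2 lower of 6. The tested members had a median log2 fold change of 0.95 in HOXA, 0.59 in HOXB, -2.93 in HOXC and -0.88 in HOXD, beside 0.0020 over all genes tested. In S2-028 against S2-020, HOXA had 5 higher and 1 lower of 10 tested, HOXB 5 higher and 0 lower of 9, HOXC 0 higher and 8 lower of 8, and HOXD 1 higher and 1 lower of 6. The medians were 0.84, 0.81, -2.91 and -0.25 for the clusters in that order. In S2-020 against S2-007, HOXA had 1 higher and 4 lower of 10 tested, HOXB 0 higher and 2 lower of 9, HOXC 2 higher and 2 lower of 9, and HOXD 0 higher and 2 lower of 7. The medians there were -0.48 for HOXA, -0.03 for HOXB, 0.07 for HOXC and -0.12 for HOXD. A total of 26 members were called in at least 1 contrast.

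**Figure D3:**
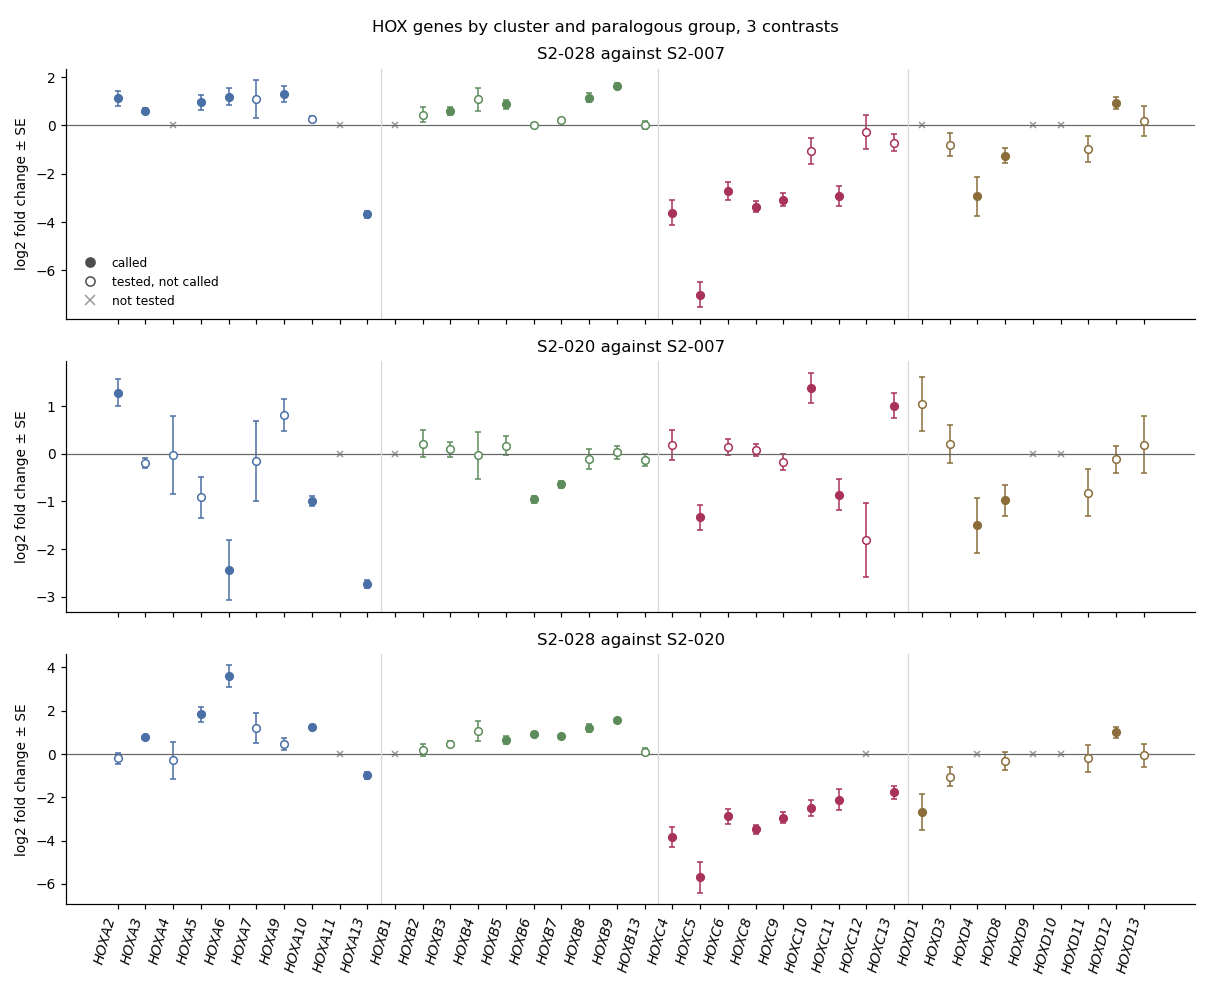
Log2 fold change ± SE of the HOX genes described here in the 3 contrasts, 1 panel each with its own y scale, with genes on the x axis ordered by cluster and paralogous group. Filled points passed the test and the fold threshold, open points were tested without a call and crosses were not tested. In S2-028 every HOXC value lies below 0 against both other lines and every HOXB value above 0.

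The HOXC cluster was lower in S2-028 over most of its length, at 6 of 9 tested genes against S2-007 and at all 8 tested against S2-020. Its anterior stretch from HOXC4 to HOXC9 was lower in S2-028 against both lines at every gene. In bulk RNA a lower level in each cell and fewer expressing cells cannot be told apart. The MANE Select exons of HOXC8 and HOXC9, genes which in the embryo act in the trunk, overlap no exon of another annotated gene on either strand. HOXC8 stood at 6.49, 6.34 and 7.26 CPM in S2-007, 7.29, 7.36 and 6.97 CPM in S2-020 and 0.499, 0.626 and 0.820 CPM in S2-028. HOXC9 stood at 3.25, 4.59 and 3.95 CPM in S2-007, 3.74, 3.23 and 3.72 CPM in S2-020 and 0.596, 0.470 and 0.328 CPM in S2-028. For both genes every S2-028 library was below every other library, and S2-007 and S2-020 overlapped. The log2 fold change of S2-028 was -3.36 ± 0.22 (SE, adjusted p = 5.04e-11) for HOXC8 and -3.07 ± 0.27 (SE, adjusted p = 6.71e-09) for HOXC9 against S2-007, and -3.47 ± 0.21 and -2.93 ± 0.26 against S2-020. S2-020 against S2-007 gave 0.07 ± 0.12 (adjusted p = 0.696) for HOXC8 and -0.17 ± 0.18 (adjusted p = 0.499) for HOXC9.

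HOXC4, HOXC5 and HOXC6 are annotated from a common start, chr12:54016888, and 67.3% of the HOXC5 exons overlap other annotated transcripts of the same strand. How reads in shared sequence were counted is not given in the sources used here, so the division among the 3 genes is uncertain. The shared start is shown because the deepest fall of the cluster was counted to HOXC5, which is annotated from it. That fall rests on few counts in S2-028. HOXC6, annotated from the same start, had the smallest fall called in the cluster against S2-007 (-2.70 ± 0.37). The 250 bases before it (RefSeq, GRCh38.p14, chr12:54016638-54016887, plus strand) are printed 5′ to 3′ with each CpG, the dinucleotide that DNA methylation acts on, in capitals.
HOXC4 and HOXC5 shared promoter: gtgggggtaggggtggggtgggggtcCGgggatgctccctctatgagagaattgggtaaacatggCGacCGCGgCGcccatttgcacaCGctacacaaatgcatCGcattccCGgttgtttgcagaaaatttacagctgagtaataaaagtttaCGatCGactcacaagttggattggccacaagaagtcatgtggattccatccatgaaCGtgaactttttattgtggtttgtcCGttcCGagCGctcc
This window holds 14 CpG and 50.8% G and C, and 44.8% of 35116 promoter windows of the same length in the table hold at least as many CpG, with a median of 11. Searched on both strands, it holds CCAAT at 2 places, a motif found in 32.0% of all windows, and holds neither TATAAA (10.7% of windows) nor TGATNNAT, the PBX and HOX composite site (6.47% of windows). The same window serves HOXC4 and HOXC5 in the table. It lies before their annotated gene start, and whether their transcripts in these lines begin there was not tested.

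HOXC5 stood at 2.81, 3.52 and 2.61 CPM in S2-007, 0.710, 1.72 and 1.17 CPM in S2-020 and 0.0644, 0 and 0 CPM in S2-028. Its counts in S2-028 were 4, 0 and 0 in n1 to n3, all at or near the floor. Summed over libraries and scaled to depth, S2-007 exceeded S2-028 by 139 times (exact 95% interval 54.1 to 512) and S2-020 exceeded it by 57.3 times (22.1 to 212), intervals that cover counting error only. They take every count as independent, which the excess of even counts puts in doubt, and may be too narrow, here and for HOXD4 and HOXD1 below. The fitted log2 fold changes were -7.0 and -5.69, and without S2-028 n1, which leaves only counts of 0, they became -10.70 and -9.41, values that then depend on the prior count of the fit. HOXC5 also differed between the other lines, with -1.34 ± 0.27 (SE, adjusted p = 3.99e-04) for S2-020 against S2-007.

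HOXC4 stood at 1.34, 0.766 and 0.692 CPM in S2-007, 1.09, 0.889 and 1.28 CPM in S2-020 and 0.0966, 0.0626 and 0.0656 CPM in S2-028. HOXC6 stood at 5.13, 5.75 and 3.68 CPM in S2-007, 6.00, 5.29 and 5.14 CPM in S2-020 and 1.39, 0.626 and 0.213 CPM in S2-028. Both genes were lower in each S2-028 library than in any other library. The log2 fold change against S2-007 was -3.61 ± 0.53 (SE, adjusted p = 1.19e-05) for HOXC4 and -2.70 ± 0.37 (SE, adjusted p = 5.23e-06) for HOXC6, and S2-028 n1 held the highest HOXC6 value of its line, so that without it the HOXC6 change became -3.52. Against S2-020 the changes were -3.82 ± 0.47 and -2.88 ± 0.36 (-3.69 without S2-028 n1 for HOXC6). Neither gene was called between S2-020 and S2-007, with 0.18 ± 0.32 for HOXC4 and 0.14 ± 0.17 for HOXC6.

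The posterior HOXC genes did not move alike. HOXC10, a gene of the lumbar region and hindlimb, stood at 0.321, 0.645 and 0.747 CPM in S2-007, 1.61, 1.36 and 1.60 CPM in S2-020 and 0.290, 0.125 and 0.393 CPM in S2-028. HOXC11 stood at 1.88, 1.09 and 1.21 CPM in S2-007, 0.543, 0.709 and 1.12 CPM in S2-020 and 0.129, 0.266 and 0.148 CPM in S2-028. HOXC13, best known for its role in hair and nail, stood at 1.04, 0.887 and 0.937 CPM in S2-007, 1.75, 2.56 and 1.59 CPM in S2-020 and 0.403, 0.579 and 0.754 CPM in S2-028. HOXC10 and HOXC13 were highest in S2-020, with no overlap with S2-007, while HOXC11 had its highest mean in S2-007, with a range that overlapped S2-020. S2-020 against S2-007 gave 1.39 ± 0.32 (SE, adjusted p = 0.00135) for HOXC10 and 1.01 ± 0.26 (SE, adjusted p = 0.00334) for HOXC13. For HOXC11 the change was -0.85 ± 0.32 (SE, adjusted p = 0.0411), and it was not called without S2-007 n1 (-0.56, adjusted p = 0.266), S2-007 n3 (adjusted p = 0.0547), S2-020 n1 (adjusted p = 0.163) or S2-020 n2 (adjusted p = 0.123). Nor was it called with DESeq2 (-0.82, adjusted p = 0.0845) or with all 9 libraries in 1 edgeR fit (-0.82, adjusted p = 0.0809). Against S2-020, S2-028 was lower for all 3 genes, with -2.50 ± 0.38, -2.11 ± 0.49 and -1.76 ± 0.31. Against S2-007 only HOXC11 was called among the 4 most posterior members, with -2.93 ± 0.41 (SE, adjusted p = 6.73e-06). HOXC10 had -1.07 ± 0.54 (adjusted p = 0.148), HOXC12 -0.27 ± 0.69 (adjusted p = 0.832) and HOXC13 -0.72 ± 0.36 (adjusted p = 0.139) in that contrast.

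Genes on both sides of HOXC moved less in S2-028 than the HOXC genes called there. The 5 nearest protein-coding genes on each side gave log2 fold changes from -0.59 to 0.04 in S2-028 against S2-007 and from -0.95 to 0.32 against S2-020. Of these 10 genes, ATP5MC2, a subunit of the mitochondrial ATP synthase, was called in both contrasts (-0.59 ± 0.06 and -0.95 ± 0.05) and ATF7-NPFF in the second (-0.64 ± 0.15). SMUG1, a DNA repair glycosylase, and CBX5, a heterochromatin protein, which lie nearest beyond HOXC4, had -0.34 ± 0.09 and 0.04 ± 0.06 against S2-007. Of the noncoding genes inside the cluster, HOTAIR, transcribed from the opposite strand between HOXC12 and HOXC11 and known for binding Polycomb proteins, had mean levels of 0.539 CPM in S2-007, 0.235 in S2-020 and 0.154 in S2-028. It was called lower in S2-028 against S2-007 (-1.79 ± 0.59, adjusted p = 0.0231). HOXC-AS2 was called lower against S2-020 (-1.61 ± 0.56, adjusted p = 0.0257).

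**Figure D4:**
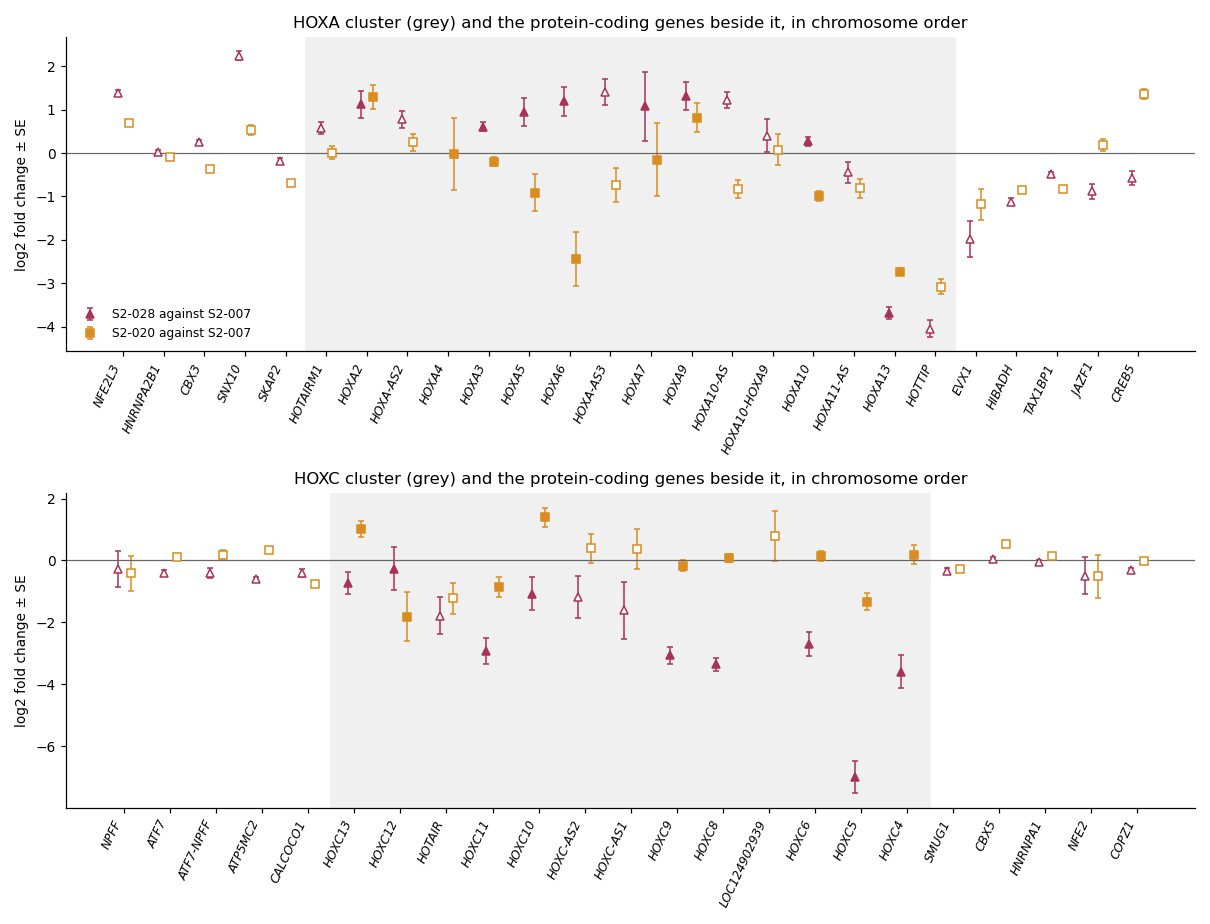
Log2 fold change ± SE along the HOXA (top) and HOXC (bottom) regions in chromosome order, for S2-028 (triangles) and S2-020 (squares) against S2-007. Filled symbols are HOX genes described here, open symbols are noncoding or read-through genes of the cluster and the 5 nearest protein-coding genes on each side, and grey marks the cluster. The low S2-028 values of HOXC stay within the grey field, and HOXA13 and HOTTIP are low in both lines at the posterior end of HOXA.

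HOXA13, the most posterior gene of its cluster and a factor of hindgut, limb and genital tract development, had the largest log2 fold change of the HOXA members tested in both contrasts against S2-007, in S2-020 within the SE of that of HOXA6, whereas HOXA5, HOXA6 and HOXA10 changed more between S2-028 and S2-020. It stood at 65.1, 68.7 and 57.0 CPM in S2-007, 10.1, 10.2 and 8.99 CPM in S2-020 and 5.06, 6.15 and 3.59 CPM in S2-028. No line overlapped another, with S2-007 the highest and S2-028 the lowest. The log2 fold change was -3.68 ± 0.13 (SE, adjusted p = 4.03e-15) for S2-028 and -2.73 ± 0.09 (SE, adjusted p = 1.52e-15) for S2-020 against S2-007, and -0.98 ± 0.16 (SE, adjusted p = 5.57e-05) for S2-028 against S2-020. Without HOXA13 the order of S2-007 and S2-028 in total HOX CPM was the reverse, with 187 ± 10.5 CPM in S2-007, 142 ± 2.42 CPM in S2-020 and 217 ± 10.3 CPM in S2-028. This reversal holds for CPM not scaled to length. Per kb of transcript the totals with HOXA13 were already within the SD of each other (110 ± 5.83 in S2-007 and 109 ± 6.50 in S2-028).

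Its promoter window (RefSeq, GRCh38.p14, chr7:27200092-27200341, minus strand) is shown for comparison with the window before the annotated start of HOXC5. Both genes were lower in S2-028, and their windows differ in composition. CpG are again in capitals.
HOXA13 promoter: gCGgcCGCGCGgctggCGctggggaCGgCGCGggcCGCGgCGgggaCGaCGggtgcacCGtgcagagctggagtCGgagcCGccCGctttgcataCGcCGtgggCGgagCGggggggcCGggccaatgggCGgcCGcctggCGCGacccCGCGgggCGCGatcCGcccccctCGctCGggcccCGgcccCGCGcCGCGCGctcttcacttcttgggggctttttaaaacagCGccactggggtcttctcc
It holds 40 CpG and 78.0% G and C, and 2.16% of all windows hold at least as many CpG. CCAAT occurs once, and neither TATAAA nor TGATNNAT occurs. Over the 20 members with an entry in the table (27 windows), the number of CpG ran from 0 to 40 with a median of 19.

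The transcripts nearest to HOXA13 on its posterior side were lower in the same lines, and those farther out were not alike. HOTTIP, a noncoding RNA that starts beside HOXA13 on the other strand and is known for activating posterior HOXA genes, had means of 10.8 ± 1.31 CPM in S2-007, 1.31 ± 0.231 CPM in S2-020 and 0.651 ± 0.136 CPM in S2-028. Its log2 fold change was -4.05 ± 0.19 (SE, adjusted p = 4.46e-13) for S2-028 and -3.08 ± 0.17 (SE, adjusted p = 8.31e-12) for S2-020 against S2-007, and -1.01 ± 0.31 for S2-028 against S2-020. HOTTIP overlaps 1.71% of the HOXA13 exons. EVX1, a homeobox gene just outside the cluster, was called lower in both lines (-1.98 ± 0.41 and -1.18 ± 0.37), as was HIBADH, an enzyme of valine breakdown (-1.12 ± 0.08 and -0.86 ± 0.06). Beyond them, TAX1BP1, an autophagy receptor, was called lower in S2-020 alone (-0.82 ± 0.05, beside -0.49 ± 0.06 in S2-028), and JAZF1, a zinc finger protein, in S2-028 alone (-0.88 ± 0.18, beside 0.19 ± 0.14 in S2-020). CREB5, a bZIP transcription factor and the outermost of the 5 genes on this side, was called higher in S2-020 (1.36 ± 0.11) and had -0.57 ± 0.16 in S2-028. On the inner side of HOXA13, HOXA11 was at or near the floor in every line, and HOXA11-AS was called lower in S2-020 against S2-007 (-0.82 ± 0.23) and had -0.44 ± 0.24 (adjusted p = 0.191) in S2-028. Beyond the anterior end of HOXA, SNX10 was called higher in S2-028 against S2-007 (2.25 ± 0.10) and against S2-020 (1.68 ± 0.09). NFE2L3 was likewise higher (1.39 ± 0.07 and 0.66 ± 0.06). HNRNPA2B1, CBX3 and SKAP2, also on that side, were not called in S2-028 against S2-007. CBX3 was called higher in S2-028 against S2-020 (0.59 ± 0.06). In S2-020 against S2-007, SKAP2 was called lower (-0.68 ± 0.06) and NFE2L3 higher (0.70 ± 0.06).

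HOXA5, HOXA6 and HOXA10 were highest in S2-028 and lowest in S2-020. HOXA10, a posterior member known from the uterus and from blood progenitors, stood at 12.2, 14.5 and 13.8 CPM in S2-007, 6.82, 7.04 and 7.02 CPM in S2-020 and 16.2, 17 and 15.8 CPM in S2-028. HOXA5, known from lung development, stood at 0.574, 0.537 and 0.774 CPM in S2-007, 0.278, 0.457 and 0.279 CPM in S2-020 and 1.14, 1.03 and 1.46 CPM in S2-028. HOXA6 stood at 0.481, 0.457 and 0.611 CPM in S2-007, 0.111, 0.144 and 0.0279 CPM in S2-020 and 1.03, 1.13 and 1.38 CPM in S2-028. Its counts in S2-020 were only 8, 12 and 2 in n1 to n3, so its changes to and from that line rest on few counts. For all 3 genes the lines were separate, with no value of one line inside the range of another. S2-020 was lower than S2-007 for HOXA10 (-0.99 ± 0.11, adjusted p = 2.90e-07) and HOXA6 (-2.44 ± 0.63, adjusted p = 0.00360), whereas HOXA5 had -0.92 ± 0.43 (adjusted p = 0.10). S2-028 was higher than S2-020 for HOXA10 (1.23 ± 0.11), HOXA5 (1.83 ± 0.37) and HOXA6 (3.60 ± 0.50, adjusted p = 6.22e-06).

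Against S2-007, S2-028 was higher for HOXA6 (1.19 ± 0.33, adjusted p = 0.00774) and HOXA5 (0.95 ± 0.32, adjusted p = 0.0273), and HOXA10 stayed under the fold threshold (0.27 ± 0.10). The HOXA5 call was lost without S2-007 n1 (0.90, adjusted p = 0.0762), S2-007 n2 (0.85, adjusted p = 0.0942), S2-028 n1 (0.98, adjusted p = 0.0512) or S2-028 n3 (0.80, adjusted p = 0.125), with a fold above the threshold in each case. Antisense RNAs of this stretch had the same order of lines. HOXA-AS3 had means of 0.681, 0.419 and 1.80 CPM, and HOXA10-AS had 2.62, 1.51 and 6.15 CPM. They overlap 21.1% of the HOXA6 exons and 23.9% of the HOXA10 exons on the opposite strand, and it is not stated that the counting used strand, so sense and antisense reads may not be separated.

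HOXA6 had its highest level in S2-028, and its promoter window (RefSeq, GRCh38.p14, chr7:27147775-27148024, minus strand) is shown as that of a HOXA gene that moved opposite to HOXA13 in S2-028. In S2-020 against S2-007 both genes were lower.
HOXA6 promoter: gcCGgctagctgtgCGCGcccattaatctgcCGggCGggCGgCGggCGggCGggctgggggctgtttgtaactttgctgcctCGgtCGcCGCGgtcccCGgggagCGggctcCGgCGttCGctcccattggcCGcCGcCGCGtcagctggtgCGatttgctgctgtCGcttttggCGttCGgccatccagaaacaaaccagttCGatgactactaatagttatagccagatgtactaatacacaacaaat
It holds 27 CpG and 62.0% G and C, and 17.7% of all windows hold at least as many CpG. CCAAT occurs once, and neither TATAAA nor TGATNNAT occurs, as in the HOXA13 window. Over the 27 HOX windows, CCAAT occurred in 18, TATAAA in 5 and TGATNNAT in 3.

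HOXA2 and HOXA3 did not share one order of lines. HOXA2, a gene of the second pharyngeal arch, stood at 0.802, 0.752 and 0.502 CPM in S2-007, 1.75, 1.57 and 1.83 CPM in S2-020 and 1.80, 1.36 and 1.33 CPM in S2-028. HOXA3, needed for thymus and parathyroid, stood at 27.6, 23.0 and 19.6 CPM in S2-007, 21.4, 21.1 and 20.3 CPM in S2-020 and 34.7, 39.5 and 33.1 CPM in S2-028. S2-007 was the lowest line for HOXA2 and S2-028 the highest for HOXA3, each without overlap. HOXA2 was higher than in S2-007 in both S2-020 (1.29 ± 0.28, adjusted p = 7.35e-04) and S2-028 (1.13 ± 0.31, adjusted p = 0.00667). HOXA3 was higher in S2-028 than in S2-020 (0.77 ± 0.08, adjusted p = 2.22e-07) and than in S2-007 (0.61 ± 0.11, adjusted p = 9.77e-05), with 0.49 without S2-007 n3 and 0.53 without S2-028 n2, both under the fold threshold. Antisense RNAs overlap 20.8% of the HOXA3 exons.

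HOXA9, a posterior gene best known from leukaemia, stood at 0.401, 0.712 and 0.570 CPM in S2-007, 1.02, 1.26 and 0.753 CPM in S2-020 and 1.26, 1.58 and 1.33 CPM in S2-028. S2-028 and S2-020 lay above S2-007 in every library. S2-028 against S2-007 gave 1.31 ± 0.32 (SE, adjusted p = 0.00288), and S2-020 against S2-007 gave 0.82 ± 0.34 (adjusted p = 0.0668) and was not called. The read-through gene HOXA10-HOXA9, which spans HOXA9 and HOXA10, had means of 0.712, 0.770 and 0.943 CPM and was not called in any contrast. Another annotated transcript of the same strand overlaps 19.2% of the HOXA9 exons. HOXA4 and HOXA7 were not called either, and opposite-strand transcripts cover 74.8% of the HOXA7 exons.

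Within HOXB the genes of groups 8 and 9 had the largest changes called in S2-028. HOXB9, which patterns the thorax, stood at 7.21, 9.24 and 7.68 CPM in S2-007, 8.91, 9.35 and 6.97 CPM in S2-020 and 25.3, 22.8 and 26.7 CPM in S2-028. HOXB8, also known from blood progenitors, stood at 2.10, 1.95 and 2.04 CPM in S2-007, 1.99, 1.96 and 1.81 CPM in S2-020 and 4.66, 4.02 and 4.75 CPM in S2-028. Both were higher in each S2-028 library than in any other, and S2-007 and S2-020 overlapped. S2-028 gave 1.63 ± 0.11 (SE, adjusted p = 1.50e-10) for HOXB9 and 1.15 ± 0.19 (SE, adjusted p = 4.25e-05) for HOXB8 against S2-007, and 1.57 ± 0.11 and 1.22 ± 0.18 against S2-020. No other annotated gene overlaps the MANE Select exons of either gene.

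HOXB6 and HOXB7, the most abundant members per kb, were set apart by a lower level in S2-020. HOXB6 stood at 49.96, 49.1 and 44.5 CPM in S2-007, 24.6, 25.4 and 25.7 CPM in S2-020 and 53.2, 46.7 and 45.5 CPM in S2-028. HOXB7 stood at 33.5, 36.3 and 34.9 CPM in S2-007, 23.9, 22.9 and 21.6 CPM in S2-020 and 45.4, 37.8 and 36.9 CPM in S2-028. S2-020 lay below both other lines without overlap. S2-020 against S2-007 gave -0.96 ± 0.07 (SE, adjusted p = 8.42e-10) for HOXB6 and -0.64 ± 0.07 (SE, adjusted p = 3.70e-07) for HOXB7, and S2-028 against S2-020 gave 0.94 ± 0.08 (SE, adjusted p = 4.56e-09) and 0.81 ± 0.09 (SE, adjusted p = 2.18e-07). S2-028 and S2-007 were not called as different, with 0.02 ± 0.08 for HOXB6 and 0.20 ± 0.08 for HOXB7 (adjusted p = 0.892 and 0.0738).

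Of the more anterior HOXB genes, HOXB3 and HOXB5 were called in S2-028. The HOXB3 change against S2-007 and the HOXB5 change against S2-020 were close to the fold threshold. HOXB3 stood at 7.31, 5.14 and 5.30 CPM in S2-007, 6.19, 6.35 and 6.87 CPM in S2-020 and 8.47, 9.72 and 8.53 CPM in S2-028. HOXB5, a factor of gut nerve precursors, stood at 2.62, 2.74 and 2.44 CPM in S2-007, 3.81, 2.56 and 2.62 CPM in S2-020 and 4.61, 4.73 and 4.85 CPM in S2-028. The S2-028 libraries were the highest for both genes, without overlap with either line. HOXB5 gave 0.86 ± 0.18 (SE, adjusted p = 4.61e-04) for S2-028 against S2-007 and 0.66 ± 0.19 (SE, adjusted p = 0.00707) against S2-020, and the second fell under the fold threshold without S2-020 n2 (0.55) or S2-020 n3 (0.57). HOXB3 gave 0.59 ± 0.15 (SE, adjusted p = 0.00407) against S2-007, at the threshold itself, and was not called with DESeq2 or RLE normalization (0.58 in both) or without S2-007 n2 (0.51), S2-007 n3 (0.51) or S2-028 n2 (0.52). Against S2-020 it had 0.46 ± 0.13 and was not called.

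HOXB13, the posterior member of the cluster and a lineage factor of prostate and hindgut, gave no call in any contrast. Its means were 9.60 ± 1.23 CPM in S2-007, 9.03 ± 1.02 CPM in S2-020 and 9.65 ± 2.45 CPM in S2-028, with log2 fold changes of 0.01 ± 0.16, -0.12 ± 0.13 and 0.10 ± 0.16 for S2-028 against S2-007, S2-020 against S2-007 and S2-028 against S2-020. HOXB2 and HOXB4 were not called in any contrast. Of the noncoding genes of HOXB, HOXB-AS4 was higher in S2-028 against both lines (1.22 ± 0.26 and 0.89 ± 0.23) and HOXB-AS3 against S2-020 (0.93 ± 0.22). HOXB-AS3 overlaps 18.2% of the HOXB6 exons on the opposite strand. Beside the cluster, 2 of 10 genes tested were called higher and 0 lower in S2-028 against S2-007. Against S2-020, 3 of 9 were higher and 0 lower. The shares of all genes called higher were 10.2% and 12.1%. CBX1, a heterochromatin protein, had 0.65 ± 0.06 against S2-007 and 0.61 ± 0.05 against S2-020, and COPZ2 had 1.05 ± 0.25 and 2.38 ± 0.30. SNX11 was called against S2-020 (0.82 ± 0.10) and had 0.21 ± 0.08 against S2-007.

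HOXD genes were low in all 3 lines, and single members moved in both directions. HOXD8 stood at 1.47, 1.33 and 1.30 CPM in S2-007, 0.404, 0.661 and 1.07 CPM in S2-020 and 0.741, 0.470 and 0.508 CPM in S2-028. HOXD12, a limb patterning gene, stood at 1.12, 0.94 and 1.00 CPM in S2-007, 0.974, 0.805 and 1.12 CPM in S2-020 and 1.95, 1.88 and 1.95 CPM in S2-028. HOXD8 was highest in S2-007 and HOXD12 highest in S2-028, each without overlap with the other lines. HOXD8 gave -1.25 ± 0.32 (SE, adjusted p = 0.00364) for S2-028 and -0.97 ± 0.33 (SE, adjusted p = 0.0222) for S2-020 against S2-007, and the second was not called without S2-007 n1 (-0.90, adjusted p = 0.0689), S2-020 n1 (-0.70, adjusted p = 0.103) or S2-020 n2 (-0.92, adjusted p = 0.0719). HOXD12 gave 0.91 ± 0.25 (SE, adjusted p = 0.00683) for S2-028 against S2-007 and 1.00 ± 0.25 (SE, adjusted p = 0.00327) against S2-020. HOXD-AS2, which overlaps 24.5% of the HOXD8 exons on the opposite strand, was lower in S2-028 (-1.70 ± 0.34) and in S2-020 (-0.78 ± 0.28) against S2-007.

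HOXD4 and HOXD1 were called with means under 1 CPM in every line. HOXD4 had 48, 24 and 31 counts in S2-007, 16, 9 and 12 in S2-020 and 6, 5 and 0 in S2-028. S2-007 exceeded S2-028 by 7.85 times (exact 95% interval 4.21 to 16.2, counting error only), and the log2 fold change was -2.94 ± 0.80 (SE, adjusted p = 0.00620), not called without S2-007 n1 (-2.62, adjusted p = 0.0551). For S2-020 against S2-007 it was -1.5 ± 0.57 (SE, adjusted p = 0.0426), and the call was lost without S2-007 n1 (adjusted p = 0.236), S2-007 n3 (adjusted p = 0.0739), S2-020 n2 (adjusted p = 0.131) or S2-020 n3 (adjusted p = 0.0809). The HOXD4 differences thus rest on few counts. HOXD1 had 24, 44 and 28 counts in S2-020 and 0, 8 and 4 in S2-028, a ratio of 6.59 (exact 95% interval 3.61 to 13.2), with -2.68 ± 0.81 (SE, adjusted p = 0.0119), not called without S2-020 n2 (-2.47, adjusted p = 0.0696). Leaving out S2-028 n2 moved the HOXD1 value to -3.60 and leaving out S2-028 n1 to -2.11, both still called. HAGLR, a noncoding RNA which overlaps 60.1% of the HOXD1 exons on the opposite strand, was also highest in S2-020, with 2.10, 6.19 and 1.42 CPM.

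Paralogous groups did not move as units. In group 9, S2-028 against S2-007 gave 1.31 for HOXA9 and 1.63 for HOXB9 but -3.07 for HOXC9, and the summed level of the group was 6.09 ± 0.882 CPM per kb in S2-007, 6.19 ± 0.514 in S2-020 and 10.6 ± 0.674 in S2-028. In group 8, HOXB8 gave 1.15, HOXC8 -3.36 and HOXD8 -1.25, and the sum was 4.23 ± 0.207, 4.14 ± 0.0558 and 2.55 ± 0.227 CPM per kb. In group 5, HOXA5 and HOXB5 were higher and HOXC5 lower, and the sum was 3.62 ± 0.313, 2.56 ± 0.224 and 3.28 ± 0.175 CPM per kb. The difference between the means of S2-028 and S2-007 exceeded the SD of either line in groups 5, 8 and 9, with S2-028 the lower in groups 5 and 8 and the higher in group 9. Group 13 summed to 16.4 ± 1.65, 5.91 ± 0.0589 and 4.56 ± 1.02 CPM per kb and followed HOXA13.

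A total of 4 members, HOXA11, HOXB1, HOXD9 and HOXD10, passed the expression filter in no contrast. The remaining members outside those described, HOXA4, HOXA7, HOXB2, HOXB4, HOXB13, HOXC12, HOXD3, HOXD11 and HOXD13, were tested in at least 1 contrast and called in none. HOXB2 and HOXB13 were above 1 CPM in every line, and the rest were below that in all 3. The 8 microRNA hairpin genes of the clusters in the table had at most 21 counts in a library and 6 of them had 0 in all 9 libraries, and poly(A)-selected libraries do not measure mature microRNAs.

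The cofactors of HOX proteins changed in part. Of 11 TALE family genes, all tested, S2-028 against S2-007 gave 1 higher and 2 lower, S2-020 against S2-007 1 higher and 4 lower and S2-028 against S2-020 3 higher and 3 lower. The shares of all genes called, 18.4%, 21.6% and 22.2% in that order, are the background for this and the following lists. PBX3, a DNA-binding partner of HOX proteins, had means of 31.6 ± 1.76 CPM in S2-007, 17.2 ± 1.42 in S2-020 and 11.2 ± 0.519 in S2-028 and was lower in S2-028 against S2-007 (-1.5 ± 0.09, adjusted p = 3.35e-11) and in S2-020 against S2-007 (-0.91 ± 0.08). MEIS3 was highest in S2-028, with means of 2.96, 1.63 and 6.60 CPM (1.16 ± 0.18 against S2-007 and 2.02 ± 0.23 against S2-020). MEIS2 was lowest in S2-020 (-1.37 ± 0.11 against S2-007).

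Among 30 Polycomb genes, the repressors of HOX clusters, S2-028 against S2-007 gave 7 higher and 1 lower, S2-020 against S2-007 2 higher and 0 lower, and S2-028 against S2-020 4 higher and 2 lower. Their share called lay below that of all genes in S2-020 against S2-007 and near it in S2-028 against S2-020. Median log2 fold changes over these 30 genes were 0.26, 0.17 and 0.08, and those over all genes tested were 0.0020, -0.05 and 0.02. CBX7, a reader of H3K27 methylation, had means of 6.53, 7.44 and 15.6 CPM and JARID2, a PRC2 subunit, 8.45, 10.3 and 19.0 CPM. S2-028 was higher for both against S2-007 (1.26 ± 0.14, adjusted p = 1.85e-07 and 1.17 ± 0.11, adjusted p = 1.74e-08). CBX2 was higher in S2-020 than in S2-007 (1.85 ± 0.09, adjusted p = 2.47e-12). Of 18 trithorax, H3K27 demethylase and DOT1L genes, the counts of higher and lower were 1 and 0, 2 and 2, and 2 and 2 in the same order of contrasts. KMT2B, an H3K4 methyltransferase, was the 1 called in S2-028 against S2-007 (0.65 ± 0.06). It was also called higher in S2-020 against S2-007 (0.69 ± 0.06) and had -0.07 ± 0.06 in S2-028 against S2-020. KDM6B, an H3K27 demethylase, was lower in S2-020 than in S2-007 (-0.88 ± 0.10).

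Retinoic acid, made from retinol, is a classical inducer of anterior HOX genes. Of 18 genes for its synthesis, clearance and receptors, 4 were higher and 4 lower of 16 tested in S2-028 against S2-007, 3 higher and 7 lower of 15 in S2-020 against S2-007 and 7 higher and 3 lower of 16 in S2-028 against S2-020. CRABP2, which carries retinoic acid to its receptors, had means of 1.16 ± 0.606 CPM in S2-007, 0.592 ± 0.139 in S2-020 and 73.7 ± 9.04 in S2-028 (5.99 ± 0.19, adjusted p = 6.55e-16 for S2-028 against S2-007). CYP26B1, which clears retinoic acid, was highest in S2-020 and lowest in S2-028, with 5.41, 20.1 and 2.08 CPM (-3.27 ± 0.13, adjusted p = 1.14e-13 for S2-028 against S2-020).

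Of 8 ParaHox and EVX genes, relatives of the HOX genes, 0 were higher and 3 lower in both S2-028 (6 tested) and S2-020 (5 tested) against S2-007, and 0 were higher and 1 lower of 4 in S2-028 against S2-020. PDX1, a ParaHox factor of pancreas identity, had means of 29.7 ± 1.57 CPM in S2-007, 11.6 ± 0.668 in S2-020 and 11.5 ± 1.54 in S2-028, and CDX2, a factor of intestinal identity, had 26.6 ± 0.935, 17.1 ± 2.87 and 9.56 ± 1.17 CPM. S2-028 against S2-007 gave -1.37 ± 0.10 (SE, adjusted p = 7.97e-10) for PDX1 and -1.47 ± 0.10 (SE, adjusted p = 1.81e-10) for CDX2, and S2-020 against S2-007 gave -1.38 ± 0.08 and -0.67 ± 0.10. The 3 genes called lower in both lines were PDX1, CDX2 and EVX1.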

How the data were processed

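RNA of 3 SUIT-2 sublines was sequenced on an Illumina NovaSeq as strand-specific libraries, 3 per line. Per the submitters' processing notes the authors used Trimmomatic 0.39, BWA 0.7.17 (an aligner that does not join reads over introns), SAMtools 1.12 and GRCh38.p14. The authors deposited raw counts per gene. The counter and its treatment of strand, overlaps and multiple matches are not given in the sources used here. A further 18 columns of normalized signal were not used, and 2 lines that name no gene were left out. Counts were tested with edgeR 4.0.16 in R 4.3.3 (TMM, filterByExpr with a minimum count of 10 and total of 15, glmQLFit and glmQLFTest, the 6 libraries of each contrast), after the script had been tested on simulated data. Alternatives were RLE or no factors, DESeq2 1.42.0, a likelihood ratio test, no filter, all 9 libraries, a replicate block and leaving out each library. Lengths and exon overlaps came from GENCODE v44 and promoters from RefSeq. Overlaps are shares of the exons of a member's MANE Select transcript, and its other exons were not checked. Members called at a mean of at least 1 CPM in a line (24 genes) are given in every library, except 1 that is not reported here but is part of the counts and sums, and of each other list at most 4 called genes per contrast with the smallest adjusted p are named. Members and lists were chosen with earlier results of these data known.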

Additional observations from a re-analysis of the deposited data

How the results depend on the processing

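For the 24 members called at a mean of at least 1 CPM, 50 calls were recomputed under 13 alternatives each. Of the 650 values, 626 kept their direction and their call, 24 kept the direction without the call and 0 reversed. The 7 calls that were lost at least once included those of HOXA3, HOXA5 and HOXB3 in S2-028 against S2-007, HOXC11 and HOXD8 in S2-020 against S2-007 and HOXB5 in S2-028 against S2-020. Of 117 recomputed counts of calls, 116 stayed within 1.5 times the reported one. When each library was left out in turn, the number of HOX genes called lower in S2-020 against S2-007 ran from 6 (without S2-007 n1) to 10, and the reported number was 10. Without normalization factors the median log2 fold change of all genes moved from -0.05 to -0.11 in S2-020 against S2-007 and from 0.02 to 0.11 in S2-028 against S2-020. Libraries of different lines with the same number showed no shared deviation (correlations of -0.0219 to 0.0140 over 9 pairs). Whether such libraries were grown or prepared together cannot be told from these values. A replicate block changed 1 call, that of HOXC11 in S2-020 against S2-007 (log2 fold change -0.86, adjusted p = 0.0537), and gave 4866, 5650 and 5716 genes called in S2-028 against S2-007, S2-020 against S2-007 and S2-028 against S2-020, beside 4858, 5769 and 5788 without it. Depth limits, among others, the 4 members that passed no filter and the S2-028 levels of HOXC4 and HOXC5, where 14 and 4 counts were summed over 3 libraries. It also limits the S2-028 levels of HOXD4 and HOXD1 (11 and 12 summed counts) and the S2-020 level of HOXA6 (8, 12 and 2 counts). The cause of the lost calls was not tested.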

Other observations

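KDM6A, the X-linked H3K27 demethylase of the trithorax list, was near the floor in all 3 lines, with means of 0.193 CPM in S2-007, 0.188 CPM in S2-020 and 0.279 CPM in S2-028 and no call in any contrast. Its counts ran from 3 to 28 per library, beside a lowest library total of 60328748. Its relative KDM6B had 23.4, 13 and 23.3 CPM. KDM6A was singled out after its values were seen.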
